A study of Rattus norvegicus with 12 samples.

Results

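The kidney of the PCK rat was set against the kidneys of 3 other rat strains, to find the genes whose expression in PCK lay outside all of the others in 1 direction. PCK is a strain that arose from the Sprague Dawley stock and carries a mutated Pkhd1, which in humans underlies autosomal recessive polycystic kidney disease. SD is that outbred stock, without the mutation. FHH, Fawn Hooded Hypertensive, is an inbred strain and also lacks it. FHH.Pkhd1 is a congenic strain that carries a PCK segment of chromosome 9, with the mutated Pkhd1, on the FHH background. All rats were 30 days old and ate the same diet. For each strain the RNA of 6 animals, from both kidneys, was pooled and hybridized to 3 Affymetrix rat expression arrays, which gave 12 arrays of 4 pools. The 3 arrays of a strain are technical replicates of 1 pool. Every standard deviation (SD), standard error (SE) and p-value below therefore measures the spread between arrays and says nothing about the spread between animals. To keep the abbreviation apart from the strain, "SD" stands for the strain except where it follows a ± value and n.

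A gene was counted as apart in PCK when 3 comparisons, PCK minus SD, PCK minus FHH and PCK minus FHH.Pkhd1, had the same sign, a limma adjusted p under 0.05 and a difference of at least 1.5-fold (0.58 on the log2 scale). These comparisons share the PCK arrays. Of 10895 genes tested, 129 met the rule, or 1.18%. In PCK 66 of them were higher (0.606%) and 63 lower (0.578%). Genes are ranked by the smallest of the 3 differences, which is the distance from PCK to the nearest other pool.

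Fibrocystin, the protein encoded by Pkhd1, sits in the membrane of the primary cilium of collecting duct and bile duct cells. Its loss leads to dilated collecting ducts and bile ducts. Around growing cysts the tubule epithelium is known to express genes of injury and repair, among them Havcr1, which encodes kidney injury molecule 1, a receptor that appears on proximal tubule cells after damage, and Clu, a secreted chaperone. No probe set carried the symbol Pkhd1 in the annotation used, so no level is given for the mutated gene. The labels describe no histology, so the extent of cysts in these kidneys at 30 days is not known here, and nor are the sex of the animals and the hour at which they were killed.

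Promoter sequences are shown for the 3 of the 5 marker genes of the PCK kidney that the RefSeq promoter table held, Havcr1 and Serpina3n, both higher in PCK, and Enpp6, lower. Each sequence holds 300 bases, most of them before the annotated start, 5′ to 3′ on the gene's strand, in GRCr8. Capitals mark a match to TTCNNNGAA, the motif bound by STAT factors, which transmit acute-phase signals. The Havcr1 window is chr10:31629528-31629827 on the plus strand, the Serpina3n window is chr6:129088142-129088441 on the plus strand, and the Enpp6 window is chr16:52026679-52026978 on the minus strand.
Havcr1: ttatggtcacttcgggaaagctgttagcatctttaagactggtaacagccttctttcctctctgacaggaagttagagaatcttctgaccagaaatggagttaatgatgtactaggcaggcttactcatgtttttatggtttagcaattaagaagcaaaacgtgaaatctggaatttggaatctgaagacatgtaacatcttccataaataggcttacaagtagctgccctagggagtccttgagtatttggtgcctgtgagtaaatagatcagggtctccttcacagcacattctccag
Serpina3n: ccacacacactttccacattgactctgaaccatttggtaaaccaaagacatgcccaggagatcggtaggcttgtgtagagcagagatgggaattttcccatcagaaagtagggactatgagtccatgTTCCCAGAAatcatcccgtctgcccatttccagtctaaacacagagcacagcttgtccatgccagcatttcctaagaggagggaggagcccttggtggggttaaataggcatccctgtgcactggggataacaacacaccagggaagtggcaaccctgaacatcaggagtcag
Enpp6: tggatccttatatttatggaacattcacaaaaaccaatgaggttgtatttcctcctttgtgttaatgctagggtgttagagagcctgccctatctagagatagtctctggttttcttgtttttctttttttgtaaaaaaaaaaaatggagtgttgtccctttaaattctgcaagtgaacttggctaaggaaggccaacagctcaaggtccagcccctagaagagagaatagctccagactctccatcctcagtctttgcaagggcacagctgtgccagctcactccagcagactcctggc
The match in Serpina3n begins 123 bases before the start. No match to TTCNNNGAA or to TGANTCA, the motif of AP-1, was in the Havcr1 or Enpp6 window. TTCNNNGAA reads the same on both strands apart from its middle bases, as does TGANTCA. Among genes higher in PCK, 5 of the 51 with a promoter in the table held TTCNNNGAA (9.8%), namely Adamts4, Dcdc2, Fga, Serpina3n and Slc22a24. The share was 1.89% of 53 among genes lower in PCK, 6.48% of 9090 tested genes and 8.68% of all 27457 promoters. For TGANTCA the shares were 1 of 51 among genes higher in PCK (Gpnmb), 1 of 53 among genes lower (Cyp26b1), 4.84% of tested genes and 7.33% of all promoters. A match describes these letters and is no evidence of binding.

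Array medians ran between 6.41 and 6.46 on the log2 scale. Correlations between arrays of 1 pool were 0.9973 to 0.9985, against 0.9916 to 0.9931 between PCK and SD arrays, 0.9885 to 0.9921 between PCK and FHH arrays and 0.9862 to 0.9893 between PCK and FHH.Pkhd1 arrays. The number of arrays limits the precision. Poly-A spike-ins, added to the RNA before labelling, stood at 10.81 ± 0.07 in PCK, 10.47 ± 0.08 in SD, 11.11 ± 0.02 in FHH and 10.01 ± 0.10 in FHH.Pkhd1 (SD, n = 3 arrays). For beta-actin, the 3′ probe set exceeded the 5′ one, a gauge of RNA quality, by 1.33 in PCK, 1.10 in SD, 1.39 in FHH and 1.20 in FHH.Pkhd1. PCK lay between the other pools in both.

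The same rule, applied to each pool in turn, marked 129 genes in PCK, 101 in SD (0.927%), 8 in FHH (0.0734%) and 80 in FHH.Pkhd1 (0.734%). By its mean alone PCK was the highest of the 4 pools in 2399 genes (22%) and the lowest in 3818 (35%). It was thus outermost in 57.1% of tested genes, against 48.7% for SD, 35.7% for FHH and 58.5% for FHH.Pkhd1. Most of these gaps were small, with medians of 0.07 where PCK was highest and -0.08 where it was lowest. Taken singly, PCK minus SD called 339 genes (3.11%), 184 higher (1.69%) and 155 lower (1.42%). PCK minus FHH called 417 (3.83%), 195 higher (1.79%) and 222 lower (2.04%), and PCK minus FHH.Pkhd1 called 635 (5.83%), 319 higher (2.93%) and 316 lower (2.9%). Among 4354 detected probe sets without a gene symbol, PCK was apart in 48 on the higher side (1.1%) and 45 on the lower side (1.03%).

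**Figure D1:**
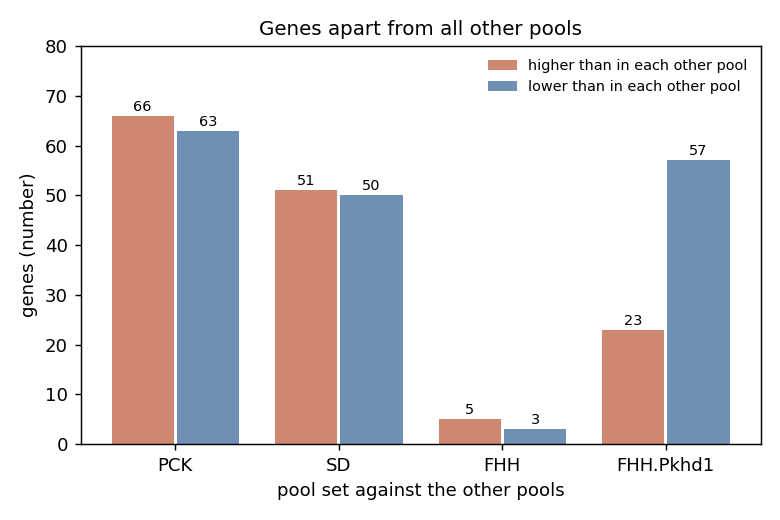
Number of genes (y axis) that were higher or lower in 1 pool than in each of the other 3, for PCK, SD, FHH and FHH.Pkhd1 (x axis), by limma adjusted p and the 1.5-fold limit. PCK has 66 higher and 63 lower, SD 51 and 50, FHH 5 and 3, and FHH.Pkhd1 23 and 57.

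The widest gap was that of Serpina3n, a secreted serine protease inhibitor of the acute-phase response. Its log2 signal was 8.94, 8.99 and 9.06 in the PCK arrays, against 4.18, 4.20 and 4.28 in SD, 4.47, 4.64 and 4.27 in FHH and 4.37, 4.24 and 4.22 in FHH.Pkhd1. The 9 arrays of the other pools were all below 5.74, the 40th percentile of the values, which served as the detection level. The smallest difference, against FHH, was 4.53 ± 0.08 (SE), given without a fold because the lower signal was not above that level. A gene was tested when its highest pool mean reached that level, so Serpina3n was tested only through PCK and no p-value is given.

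Havcr1 read 9.29, 9.14 and 9.33 in PCK, against 6.08, 6.07 and 6.14 in SD, 6.87, 6.96 and 7.17 in FHH and 6.197, 6.11 and 5.92 in FHH.Pkhd1. The PCK arrays stood clear of the rest, and among the rest FHH was uppermost. The difference was 3.15 ± 0.08 against SD, 2.25 ± 0.08 against FHH and 3.18 ± 0.08 against FHH.Pkhd1, so PCK was at least 4.76-fold higher (limma adjusted p = 1.12e-09). Clu, the chaperone clusterin, read 11.67, 11.56 and 11.62 in PCK, against 10.09, 10.04 and 10.08 in SD, 9.43, 9.34 and 9.33 in FHH and 9.68, 9.52 and 9.58 in FHH.Pkhd1. Here SD was the nearest pool, at a distance of 1.55 ± 0.05, or 2.93-fold (limma adjusted p = 2.77e-10).

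In the other direction, Ephx2, the soluble epoxide hydrolase that turns epoxides of arachidonic acid into diols, read 7.09, 7.23 and 7.09 in PCK. It was at 9.77, 9.73 and 9.71 in SD, 10.94, 10.91 and 10.90 in FHH and 10.97, 10.97 and 10.95 in FHH.Pkhd1. The 4 pools formed a low PCK level, an SD level above it and a shared upper level of the FHH strains, with no overlap between PCK and the rest. PCK was at least 6.05-fold lower, with a smallest difference of -2.60 ± 0.04 against SD (limma adjusted p = 3.84e-13). Enpp6, a phosphodiesterase that cleaves glycerophosphocholine, read 5.99, 6.49 and 6.18 in PCK, against 8.91, 8.98 and 8.96 in SD, 8.58, 8.46 and 8.50 in FHH and 8.50, 8.56 and 8.52 in FHH.Pkhd1. The other pools lay close together, and PCK was at least 4.91-fold lower (-2.30 ± 0.09 against FHH, limma adjusted p = 2.33e-09). In a pool of whole kidney RNA, fewer cells of a type and less RNA per cell cannot be told apart.

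Apart from these 5 markers, the next genes higher in PCK were enzymes, transporters and proteins of membranes and matrix. Cps1, the mitochondrial carbamoyl phosphate synthetase that opens the urea cycle, read 8.78, 8.88 and 8.72 in PCK, against 6.00, 6.05 and 6.08 in SD, 4.48, 3.83 and 4.18 in FHH and 4.55, 4.84 and 4.69 in FHH.Pkhd1. Its signals in the FHH strains were below the detection level, and those in SD just above it. PCK exceeded SD by 2.75 ± 0.13 (SE, limma adjusted p = 7.54e-09), and a second Cps1 probe set put the smallest difference at 1.80.

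Dusp15, a dual-specificity phosphatase, read 7.49, 6.91 and 7.30 in PCK, against 4.96, 4.90 and 4.90 in SD, 4.60, 4.79 and 4.58 in FHH and 4.43, 4.48 and 4.39 in FHH.Pkhd1. It was detected in PCK alone, with a smallest difference of 2.31 ± 0.11 against SD. Dusp15 too was tested only through PCK, so no p-value is given. The amino acid transporter Slc7a12 was at 11.35, 11.33 and 11.29 in PCK, against 9.43, 9.46 and 9.49 in SD, 8.63, 8.57 and 8.74 in FHH and 6.75, 6.73 and 6.72 in FHH.Pkhd1. Every pool had its own level of Slc7a12, with PCK at the top and FHH.Pkhd1 at the bottom, and PCK was 3.64-fold above SD (1.86 ± 0.04).

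Snap91, an assembly protein of clathrin-coated vesicles, was lower in the other pools, whose means spanned 0.29. It read 8.62, 8.55 and 8.60 in PCK, against 6.67, 6.83 and 6.71 in SD, 6.85, 6.94 and 6.83 in FHH and 6.48, 6.64 and 6.63 in FHH.Pkhd1, and the smallest difference was 1.72 ± 0.05. The polarity protein Pard6g (1.54) and Brcc3-ps7 (1.58) were detected in PCK alone. The symbol Brcc3-ps7 names a pseudogene, so its probe set may read a related transcript. The matrix protein cochlin, Coch, averaged 8.04 ± 0.09 in PCK, 6.57 ± 0.05 in SD, 5.60 ± 0.11 in FHH and 6.01 ± 0.07 in FHH.Pkhd1 (SD, n = 3 arrays). Lypd2, of the LY6 family, and Ubd, a ubiquitin-like modifier induced by cytokines, had smallest differences of 1.35 and 1.33.

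Among genes lower in PCK, Pcdh9, a protocadherin, read 4.83, 4.72 and 4.62 in PCK, against 7.30, 7.39 and 7.21 in SD, 8.96, 8.90 and 8.85 in FHH and 7.01, 7.34 and 7.08 in FHH.Pkhd1. It was below the detection level in PCK only, with a smallest difference of -2.42 ± 0.08 (limma adjusted p = 3.49e-10), or -0.88 by its other probe set. Resp18, a protein of endocrine secretory granules, read 5.02, 5.19 and 5.20 in PCK, against 7.49, 7.46 and 7.44 in SD, 8.12, 7.97 and 8.16 in FHH and 7.47, 7.50 and 7.53 in FHH.Pkhd1. It too was below the detection level in PCK only (-2.33 ± 0.06, limma adjusted p = 4.52e-11).

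Alb, the plasma protein albumin, read 5.71, 5.92 and 5.86 in PCK, against 7.84, 7.86 and 7.95 in SD, 9.63, 9.53 and 9.56 in FHH and 10.01, 10.09 and 10.04 in FHH.Pkhd1. Its levels thus ran upward from PCK through SD and FHH to FHH.Pkhd1. PCK was 4.15-fold below SD (-2.05 ± 0.05), and a second probe set put that distance at -0.72. Lhfpl2, a tetraspan membrane protein, was at 6.43, 6.15 and 6.60 in PCK, against 7.89, 7.83 and 7.69 in SD, 7.91, 7.80 and 7.79 in FHH and 7.88, 7.74 and 7.75 in FHH.Pkhd1. The 9 arrays outside PCK shared a narrow band, and the smallest difference was -1.39 ± 0.09, or -0.83 and -1.05 by the other 2 probe sets.

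Lig4, the ligase that seals DNA ends in non-homologous joining, had the same shape. It read 6.49, 6.67 and 6.60 in PCK, against 7.97, 7.95 and 7.89 in SD, 8.09, 7.996 and 8.10 in FHH and 8.06, 8.06 and 8.06 in FHH.Pkhd1 (-1.35 ± 0.05 against SD, limma adjusted p = 1.08e-09). A second Lig4 probe set put the smallest difference at -0.66. The remaining genes among the 12 largest decreases were Pappa2 (-1.27), a protease that frees insulin-like growth factors from their binding proteins, Apobec1 (-1.23), the cytidine deaminase that edits apolipoprotein B messenger RNA, Mamdc2 (-1.16), the decarboxylase Gadl1 (-1.15) and the kallikrein Klk1c4 (-1.06). Pappa2 was below the detection level in PCK only. Mamdc2 was at 4.10 in PCK, 5.27 in SD and 5.62 in FHH, all below that level, and at 5.77 in FHH.Pkhd1, just above it.

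**Figure D2:**
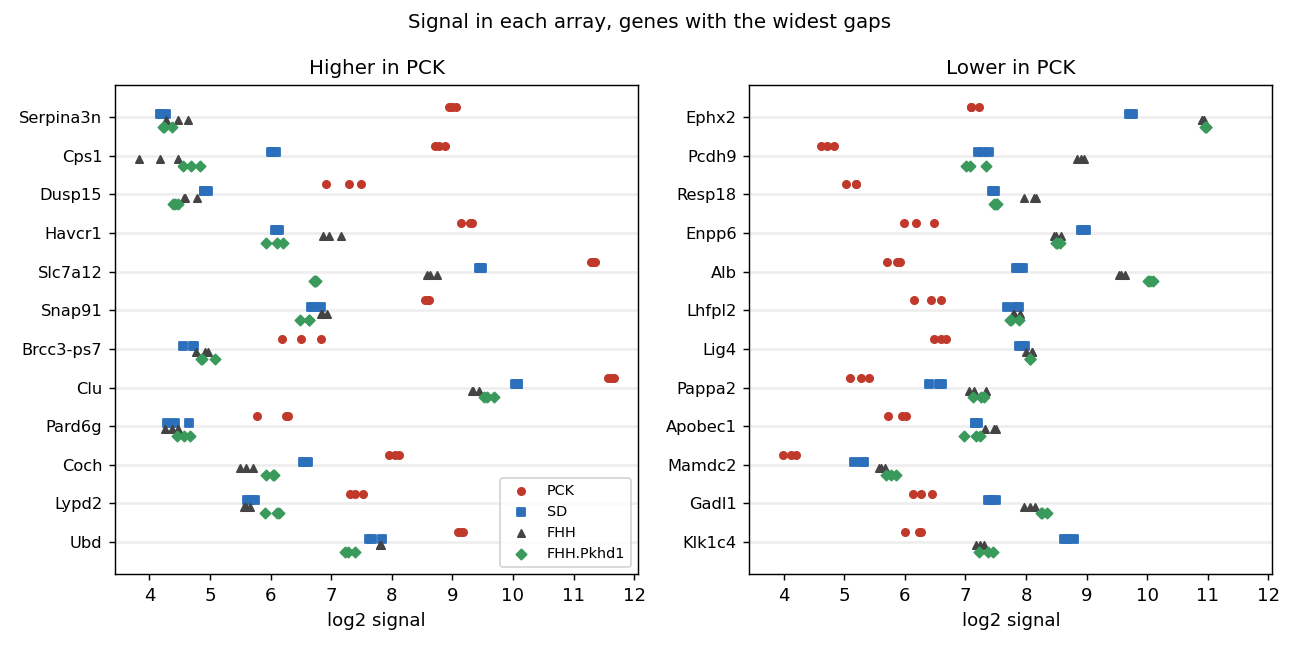
Log2 signal (x axis) of each of the 12 arrays for the 12 genes with the widest gaps higher in PCK (left) and lower in PCK (right), where each point is 1 array of the PCK, SD, FHH or FHH.Pkhd1 pool. The genes were chosen among those where no PCK array overlaps an array of another pool. They run from Serpina3n (4.53) to Ubd (1.33) on the left and from Ephx2 (-2.60) to Klk1c4 (-1.06) on the right.

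Over the 66 genes higher in PCK the smallest difference ranged from 0.59 to 4.53, with a median of 0.89, and 26 of them reached 2-fold. Over the 63 genes lower in PCK it had a median of -0.75, and 13 reached 2-fold. No PCK array overlapped an array of another pool in any of the 129 genes, which the rule all but requires. Over all tested genes the PCK arrays lay above all others in 7.3% and below all others in 13.8%. In 12 of the 66 genes higher in PCK the other 3 pools were all below the detection level, and in 12 of the 63 genes lower in PCK the PCK pool was. Those 12 higher genes were tested only because PCK was high, so their place among the 66 is no separate support. Without the filter on low values 74 genes were higher and 65 lower. No fold is given where a pool of the comparison was below that level. In Mamdc2, P2ry1, Acadsb and LOC102553824 the nearest pool was below it as well as PCK, so their smallest differences lie between undetected signals.

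The pools outside PCK did not always share a level. The range between the means of SD, FHH and FHH.Pkhd1 was at most 0.25 in 22 of the genes higher in PCK and in 26 of those lower. It exceeded the PCK gap itself in 9 genes higher in PCK and 10 lower. Of this second kind is Fam111a, a protease that restricts viruses. It read 11.85, 11.92 and 11.88 in PCK, against 6.87, 6.90 and 6.87 in SD, 10.67, 10.64 and 10.62 in FHH and 10.82, 10.80 and 10.84 in FHH.Pkhd1. PCK was uppermost by 1.07, while SD lay far below every other pool. Scd, the stearoyl-CoA desaturase, was lower in PCK at 5.77 ± 0.38, against 6.66 ± 0.09 in SD, 8.20 ± 0.07 in FHH and 9.73 ± 0.24 in FHH.Pkhd1 (SD, n = 3 arrays). The pool nearest to PCK was SD in 28 of the genes higher and 37 of those lower, FHH in 22 and 11, and FHH.Pkhd1 in 16 and 15.

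**Figure D3:**
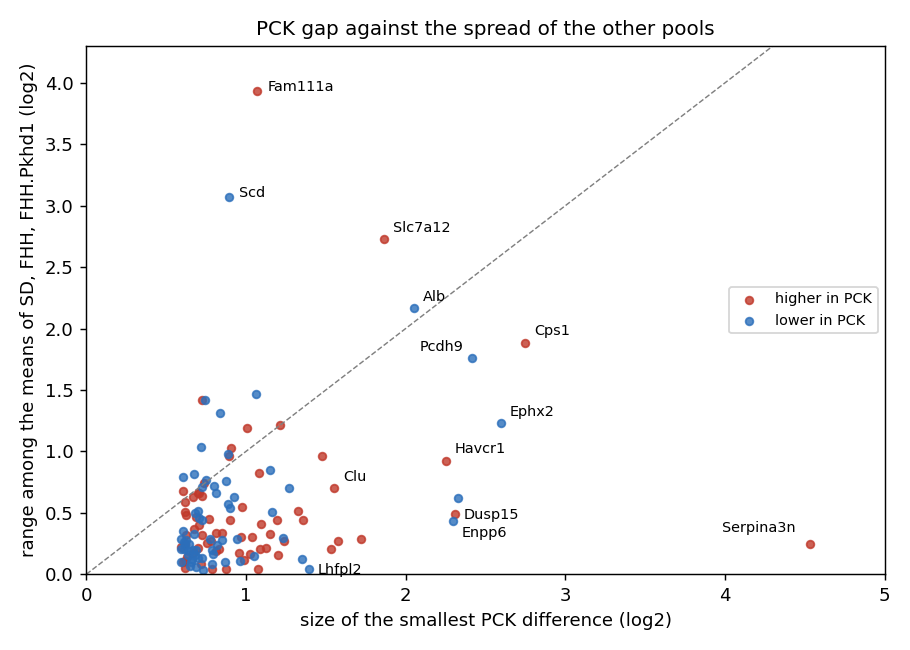
For each of the 129 genes apart in PCK, the size of the smallest PCK difference (x axis, log2) is plotted against the range between the means of SD, FHH and FHH.Pkhd1 (y axis, log2), and the dashed line marks equality. Serpina3n and Enpp6 lie far below the line, while Fam111a and Scd are among the genes above it.

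At the limit of the rule, the genes just inside were Nqo1 (0.59), Cpe (0.61) and Igfbp1 (0.61) on the higher side and Entpd5, Sqle and Chd1l (each -0.59) on the lower side. Just outside were Creb3l3, Tspan1 and the matrix phosphoprotein Spp1 (each 0.58), and Per3 (-0.58), Zswim7 (-0.58) and Dbp (-0.57). Single arrays moved the genes just inside across the limit. Nqo1 fell short without PCK replicate 2 (0.55), SD replicate 1 (0.57) or SD replicate 3 (0.58), Cpe without PCK replicate 2 (0.56) or SD replicate 3 (0.58) and Igfbp1 without FHH.Pkhd1 replicate 3 (0.57). Entpd5 fell short without PCK replicate 1 (-0.55), PCK replicate 3 (-0.58) or SD replicate 1 (-0.53), Chd1l without PCK replicate 3 (-0.58), and Sqle without PCK replicate 3 (-0.55), FHH replicate 1 (-0.56) or FHH.Pkhd1 replicate 2 (-0.56). Quantile normalization also left Entpd5 (-0.56), Chd1l (-0.55) and Sqle (-0.52) short, and centring of the arrays left Chd1l and Sqle short (each -0.56). With the mean of its probe sets Entpd5 was at -0.45. Nqo1, Cpe and Igfbp1 were kept under both scalings.

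Probe sets of 1 gene could differ. Of the 129 genes, 25 had another detected probe set, 28 in all. Of these, 23 put PCK on the same side of all 3 pools, 10 of them also past 1.5-fold. They were all 7 for genes higher in PCK and 16 of 21 for genes lower. By its mean PCK was highest in 22% and lowest in 35% of all tested genes. Another 4, for Ank2, Fam120b, Hus1 and Zfp593, put it on the opposite side of all 3, so the direction of these 4 genes depends on the probe set. All 4 were genes counted as lower in PCK. The differences of the other Apln probe set had no shared sign.

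Lists of genes by function and cell type were then counted. Of 36 lists, 15 held at least 1 gene apart in PCK and 21 held none. Together the lists named 30 of the 129 genes. The share of all tested genes on a list was not counted. The lists were chosen with earlier results of these data known, so nothing is read from that number. The counts are set beside the numbers that passed limma's adjusted p in all 3 comparisons without the fold limit, which over all tested genes were 642 higher (5.89%) and 1135 lower (10.4%) in PCK. The median smallest difference over all tested genes was 0.00, because a gene whose 3 differences do not share a sign counts as 0.

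Of 22 tubule injury and repair genes tested, 4 were apart and higher and none lower, and 12 were higher and none lower by adjusted p alone. The 4 were Havcr1, Clu, Slc34a2 (1.24), a sodium phosphate cotransporter, and Gpnmb (0.97), a glycoprotein of macrophages and injured epithelium. Havcr1 and Clu are also markers of the PCK kidney, chosen because PCK lies outside the other pools, so these counts are a description. Slc34a2 averaged 8.75 ± 0.01 in PCK, 7.51 ± 0.08 in SD, 7.43 ± 0.11 in FHH and 7.24 ± 0.05 in FHH.Pkhd1 (SD, n = 3 arrays). The list median was 0.38 against SD, 0.29 against FHH and 0.36 against FHH.Pkhd1, compared with 0.00, -0.04 and -0.06 over all tested genes. Lcn2, a secreted carrier of iron-binding siderophores, rose by less (0.51), as did Spp1 (0.58), Cdkn1a (0.39) and Cd44 (0.34), while Vim stood at -0.05 and Krt8, Krt19, Vcam1, S100a6, Tff3, Gdf15 and Sox4, whose 3 differences had no shared sign, at 0.00. Array means over the list were 9.45 to 9.50 in PCK, 8.94 to 8.99 in SD, 8.95 to 8.9995 in FHH and 8.82 to 8.85 in FHH.Pkhd1.

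Macrophage, urothelial and proximal tubule markers were read beside the injury genes. None of 13 macrophage markers was apart, although 4 were higher by adjusted p alone, with the lysosomal protease Ctss (0.48) and the mannose receptor Mrc1 (0.28) largest. Array means over the macrophage list were 7.92 to 7.93 in PCK, 7.87 to 7.90 in SD, 7.65 to 7.70 in FHH and 7.77 to 7.79 in FHH.Pkhd1. Of 8 urothelial and basal epithelial markers none was apart and 3 were higher by adjusted p alone, with array means of 6.39 to 6.46 in PCK, 5.82 to 5.93 in SD, 6.37 to 6.49 in FHH and 6.26 to 6.32 in FHH.Pkhd1. Of 24 proximal tubule markers none was apart and 3 were higher and 2 lower by adjusted p alone, with array means of 11.58 to 11.58 in PCK, 11.58 to 11.61 in SD, 11.49 to 11.52 in FHH and 11.43 to 11.47 in FHH.Pkhd1. The brush border dipeptidase Dpep1 (0.46) and Cyp2e1 (0.40) were their largest. The part of these markers in the values of the injury list was not tested.

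Acute-phase and plasma proteins went both ways. Of 12 tested, Serpina3n and the fibrinogen chain Fga (0.68) were higher and Alb was lower, and 9 further members were measured below the detection level. A second Fga probe set gave 0.53, short of the fold limit. On adjusted p alone 3 were higher and 2 lower. Complement genes gave 2 of 14 higher and none lower, with 4 higher by adjusted p alone. Serping1, the C1 inhibitor, averaged 11.04 ± 0.11 in PCK, 9.69 ± 0.03 in SD, 9.96 ± 0.02 in FHH and 10.001 ± 0.08 in FHH.Pkhd1 (SD, n = 3 arrays). Cfi, the protease that cleaves C3b, was above the detection level in PCK alone (0.90). Of 15 antigen presentation genes 2 were lower, the class II chain RT1-Da (-0.73) and the invariant chain Cd74 (-0.72), with 6 lower and none higher by adjusted p alone. Array means over that list were 8.60 to 8.64 in PCK, 8.37 to 8.40 in SD, 9.02 to 9.04 in FHH and 9.15 to 9.22 in FHH.Pkhd1, so the list mean in PCK lay above that in SD.

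Sterol synthesis had 3 of 16 genes lower and none higher, lanosterol synthase Lss (-0.87), the reductase Hsd17b7 (-0.79) and squalene epoxidase Sqle (-0.59, a call that single arrays or the scaling decided). By adjusted p alone 10 were lower, 9 after quantile normalization or centring of the arrays. Lss averaged 7.46 ± 0.04 in PCK, 8.33 ± 0.02 in SD, 8.38 ± 0.03 in FHH and 8.43 ± 0.02 in FHH.Pkhd1 (SD, n = 3 arrays), with no overlap. A second Lss probe set gave -0.38. In fatty acid synthesis 1 of 13 was lower, Scd, and 5 by adjusted p alone. In fatty acid oxidation 2 of 21 were higher, the peroxisomal bifunctional enzyme Ehhadh (0.76) and the mitochondrial isomerase Eci1 (0.62, or 0.40 and not apart with the mean of its probe sets), 8 were higher by adjusted p alone and none was lower. Arachidonate metabolism had 3 of 20 genes lower, Ephx2, the inducible cyclooxygenase Ptgs2 (-0.79) and the prostaglandin dehydrogenase Hpgd (-0.62), with none apart on the higher side. Of the arachidonate genes 2 were higher and 3 lower by adjusted p alone.

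The clock list also showed PCK at both ends. In the circadian oscillator, Bmal1 and its partners Clock or Npas2 activate genes such as the Per and Dbp families, whose transcripts peak when that of Bmal1 is low. Bmal1 read 6.83, 7.13 and 6.92 in PCK, against 6.21, 6.36 and 6.197 in SD, 6.01, 5.99 and 6.13 in FHH and 5.91, 6.30 and 6.01 in FHH.Pkhd1. Npas2 read 7.09, 7.17 and 7.19 in PCK, against 6.33, 6.19 and 6.49 in SD, 6.44, 6.07 and 6.24 in FHH and 6.23, 6.15 and 6.08 in FHH.Pkhd1. Both were higher in PCK, by 0.70 and 0.81, and the repressor Bhlhe40 was lower, by -0.73.

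Dbp, just outside the fold limit, read 9.62, 9.59 and 9.64 in PCK, against 10.28, 10.14 and 10.16 in SD, 10.66, 10.57 and 10.51 in FHH and 10.54, 10.45 and 10.58 in FHH.Pkhd1. By adjusted p alone 2 of the 15 clock genes were higher in PCK and 8 lower, the same numbers under both other scalings. Besides Bhlhe40 and Dbp, the lower ones were Per3 (-0.58), Hlf (-0.48), Per2 (-0.44), Nr1d2 (-0.23), Cry2 (-0.21) and Tef (-0.19), while Per1, Cry1 and Bhlhe41 (each 0.00) had no shared sign. The labels give no time of death, and whether the pools were collected at different hours cannot be told apart from strain here.

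**Figure D4:**
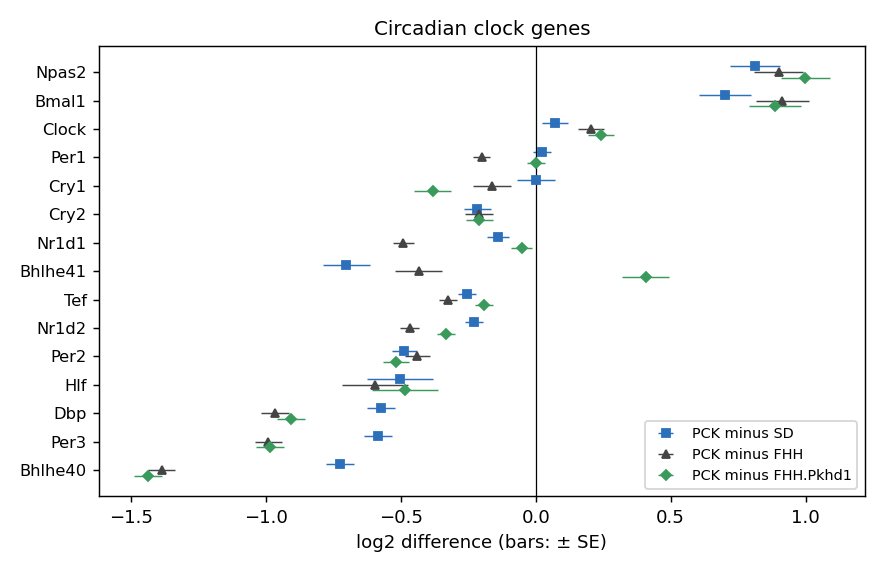
Log2 difference (x axis, with SE) of PCK minus SD, minus FHH and minus FHH.Pkhd1 for the 15 tested circadian clock genes (y axis, ordered by mean difference). Npas2 (smallest difference 0.81) and Bmal1 (0.70) lie to the right of 0 and Bhlhe40 (-0.73), Per3 (-0.58) and Dbp (-0.57) to the left in every comparison.

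Cell cycle genes were low in PCK by small amounts. PCK was the lowest pool in 21 of 25 genes, none was apart, and 11 passed as lower by adjusted p alone with none higher. Over all tested genes PCK was lowest in 35%, and 10.4% passed as lower by adjusted p alone. Mitotic cyclin Ccnb2 and the proliferation antigen Mki67 were among the lowest (both -0.39). The list median was -0.15, and array means were 7.70 to 7.76 in PCK, 7.93 to 7.97 in SD, 7.95 to 8.03 in FHH and 8.19 to 8.22 in FHH.Pkhd1. Of 16 immediate early genes none was apart and 5 were higher by adjusted p alone, with Myc (0.54) and Dusp1 (0.25) largest.

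Matrix genes held 1 apart in each direction among 31, Tgfbi (0.67), a secreted adhesion protein, and the proteoglycan lumican, Lum (-0.84), whose PCK signal was below the detection level. By adjusted p alone 3 were higher and 10 lower. In the remaining metabolic lists the quinone reductase Nqo1 was the only conjugation gene apart of 25, with 5 higher and 2 lower by adjusted p alone. Cps1 was the only urea cycle, arginine and creatine gene of 13 (4 higher and 2 lower). Slc7a12 was the only amino acid transporter of 19 (7 higher and 4 lower) and Enpp6 the only choline and osmolyte gene of 19 (4 higher and 1 lower). Calb1 (-0.66), the calcium-binding protein of the distal convoluted tubule, was lower in PCK at 11.59 ± 0.02, against 12.28 ± 0.03 in SD, 12.26 ± 0.01 in FHH and 12.38 ± 0.02 in FHH.Pkhd1 (SD, n = 3 arrays), and was the only one of 15 thick limb and distal markers apart. Of these markers 1 was higher and 3 lower by adjusted p alone.

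Lists of cystic disease, cilium and signalling genes held none apart. Of 17 cystic disease and cilium genes none was apart, and by adjusted p alone 1 was higher and 2 lower, with Ift140 (0.30) and Bbs1 (-0.23) largest. None of 16 vasopressin and cAMP genes was apart, with 2 higher and 1 lower by adjusted p alone. None of 9 genes of the EGF receptor axis was apart, with 1 higher and 1 lower by adjusted p alone, and Areg (-0.43) and Nrg1 (0.35) led. Areg was below the detection level in PCK (4.63) and in its nearest pool, FHH.Pkhd1 (5.05), so its value lies between undetected signals. Markers of principal cells (14), intercalated cells (9), podocytes (7), endothelium (10), smooth muscle (8), lymphocytes (3) and neutrophils (1) had none apart. By adjusted p alone, 1 intercalated and 2 endothelial markers were higher and 1 smooth muscle marker was lower, and the other 4 of these lists had none. Interferon response genes (20), aldo-keto reductases (12) and organic ion transporters (18) also had none apart. The adjusted p alone put 2 interferon genes and 4 organic ion transporters higher, and 1 aldo-keto reductase higher and 1 lower. A gene below the fold limit may still differ, and the fold limit decides these counts.

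Markers of tissue beside the kidney differed between the pools in another way, and whether such tissue was carried over was not tested. Adrenal markers, of which 6 were tested, had array means of 6.18 to 6.28 in PCK, 6.28 to 6.30 in SD, 7.48 to 7.53 in FHH and 8.36 to 8.45 in FHH.Pkhd1. Fat markers, 11 in number, were at 7.34 to 7.36 in PCK, 7.22 to 7.28 in SD, 7.95 to 7.998 in FHH and 7.93 to 7.99 in FHH.Pkhd1. PCK and SD were thus the low pools for both, and none of these markers was apart in PCK, though 1 adrenal and 2 fat markers were lower by adjusted p alone. Red cell markers, 4 in number, were at 8.78 to 8.86 in PCK, 9.70 to 9.83 in SD, 8.81 to 8.90 in FHH and 9.07 to 9.14 in FHH.Pkhd1, with none apart and 1 lower by adjusted p alone. The part of these tissues in single genes such as Scd, Car3 and Alb was not tested.

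Members outside these lists are named here by role, chosen after their values were seen. Among the higher ones, secreted or luminal proteins were the prothrombin gene F2 (1.09), the elastase inhibitor Slpi (1.08), Dmbt1 (1.15), the zinc glycoprotein Azgp1 (1.21), the protease inhibitor Spink1l (0.99), Serpina10 (0.95), the lipase inhibitor Angptl4 (0.72) and the growth factor binding protein Igfbp1 (0.61). Membrane proteins among them were Ace (1.09), which makes angiotensin II, the pyrophosphatase Enpp1 (1.01), the pantetheinase Vnn1 (0.85), the bile acid ligase Slc27a5 (0.89), the transporters Abcb10 (0.74) and Slc22a24 (0.72), and Pigr (0.62), which carries immunoglobulin A across epithelia. The stress protein Nupr1 (0.70), the Wnt target Axin2 (0.79) and Dcdc2 (0.63), a protein of the ciliary axoneme, were also higher. Ace and Axin2 were below the detection level in all of SD, FHH and FHH.Pkhd1.

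Among the lower members, enzymes were the cytochrome Cyp2d2 (-1.05), the glycan branching enzyme Gcnt2 (-0.96), the retinoic acid hydroxylase Cyp26b1 (-0.61), carbonic anhydrase Car3 (-0.74) and Aadac (-0.71). Signalling proteins were the purine receptors P2rx4 (-0.80) and P2ry1 (-0.75), the scaffold Homer2 (-0.89), the kinase Map2k6 (-0.61), the matricellular protein Ccn1 (-0.70) and the peptide Apln (-0.61). Protease inhibitors were Serpinb9 (-0.69) and Serpine2 (-0.64). Proteins of the cilium and centrosome were Crocc (-0.82), which forms the ciliary rootlet, Dync2i2 (-0.69), of the dynein that carries cargo back down the cilium, and Haus4 (-0.67), of the spindle. Genome maintenance proteins beside Lig4 were Rtel1 (-0.81), Hus1 (-0.70) and Chd1l (-0.59), and the other probe set of Hus1 points the other way. Several of these calls were not kept under other settings. Cyp26b1 fell short without PCK replicate 3 (-0.51) or FHH replicate 2 (-0.55), after centring (-0.58) and when its probe sets were averaged (-0.34), and its other probe set gave -0.08. When probe sets were averaged, Apln (-0.02), Hus1 (-0.13) and Serpinb9 (-0.57) fell short. Without PCK replicate 1, Map2k6 (-0.56) and Serpine2 (-0.57) did, and after quantile normalization Chd1l (-0.55) did.

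The congenic strain carries the PCK segment, so the difference between FHH.Pkhd1 and FHH is set beside these values for the 5 markers. It shares the FHH and FHH.Pkhd1 arrays with the rule, and over all tested genes it called 0.395% higher and 0.872% lower. FHH.Pkhd1 minus FHH was -0.93 for Havcr1, -0.19 for Serpina3n, 0.23 for Clu, 0.05 for Ephx2 and 0.01 for Enpp6, where PCK minus SD was 3.15, 4.78, 1.55, -2.60 and -2.73 in the same order. Of the 66 genes higher in PCK, FHH.Pkhd1 minus FHH called none higher and 5 lower, Slc7a12 (-1.91), Havcr1, Azgp1 (-0.91), Slpi (-0.83) and Rarres1 (-0.68). Of the 63 genes lower in PCK it called 4 higher, Scd (1.53), Acadsb (1.03), Cyp26b1 (0.69) and Car3 (0.69), and 3 lower, Pcdh9 (-1.76), P2ry1 (-0.77) and Resp18 (-0.59). Because arrays are shared, nothing is read from these counts. Genes of chromosome 9, which holds the segment, were 5 of the 129 (3.88%), against 428 of the tested genes (3.93%). They were Cps1 and Npas2, higher in PCK, and Resp18, Serpine2 and Oard1, lower.

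Gene order on GRCr8 placed Clu and Ephx2 side by side on chromosome 15, with no tested gene between them and opposite differences in PCK. Around them, Trim35, the next tested gene beyond Ephx2, differed by 0.00 against SD, -0.07 against FHH and -0.16 against FHH.Pkhd1. On the side of Clu, Esco2 stood at -0.45 and Pbk at -0.20 by their smallest differences. For Esco2 both PCK (5.14) and its nearest pool, SD (5.60), were below the detection level. Scara5, a ferritin receptor, differed by 1.53 against SD, 0.71 against FHH and 0.26 against FHH.Pkhd1. Its means in SD (4.71) and FHH (5.53) were below the detection level. Within 5 tested genes of each other lay 13 pairs of the 129 genes, 4 in the same direction and 9 in opposite directions. Serpina10 and Serpina3n on chromosome 6 were both higher, while Chd1l was lower and its neighbour Fmo5 (0.81) higher on chromosome 2. The corresponding counts were 10 pairs among 100 placed genes apart in SD, 1 among 8 in FHH and 8 among 79 in FHH.Pkhd1. Chromosome 2, named after the counts were seen, held 16 of the genes apart in PCK (12.4%), against 6.43% of the tested genes. Other chromosomes departed from their share as well. Chromosome 13 held 5.43% against 2.93%, chromosome 8 held 1.55% against 5.65% and chromosome 19 held 1.55% against 2.89%.

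**Figure D5:**
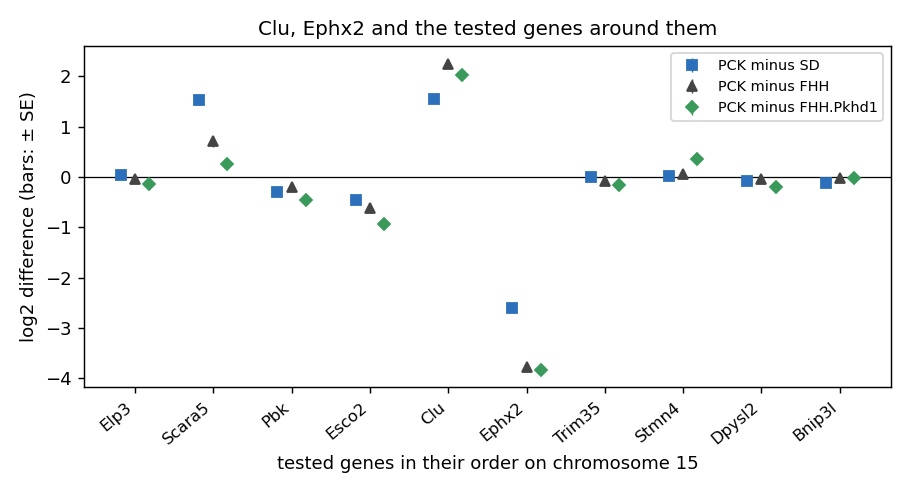
Log2 difference (y axis, with SE) of PCK minus SD, minus FHH and minus FHH.Pkhd1 for Clu, Ephx2 and the tested genes around them, in their order on chromosome 15 (x axis, not to scale). Clu lies above 0 (smallest difference 1.55) and its neighbour Ephx2 below 0 (-2.60) in every comparison, while Trim35 stays between -0.16 and 0.00.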

How the data were processed

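The deposited table held log2 probe set signals for 12 arrays, which the authors made with Partek 6.2 and RMA, per the submitters' processing notes, and was used without further normalization. The sources used here do not say whether RMA was run on all arrays at once. RNA was taken from RNAlater-stored kidneys with Trizol and labelled with a 3′ kit, per the labels' protocols. Of 31099 probe sets, 57 were controls, 20826 carried 1 symbol (20813 matched current records), 436 several and 9780 none. The platform annotation can be old. The probe set with the highest mean was kept for each of 14217 genes, and the 10895 genes whose highest pool mean reached the 40th percentile (5.74) were tested. limma 3.58.1 in R 4.3.3 fitted 1 mean per strain (prior degrees of freedom 4.01, residual 8), with Benjamini-Hochberg adjustment over all genes in each comparison. The procedure was tested on simulated data.

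Named genes were the 12 largest smallest-differences in each direction, 5 markers, up to 4 list members apart in each direction (the 2 largest where none was), and the 3 on each side of the limit. The 12 were taken among genes apart whose PCK arrays overlapped no other array and whose symbol was no placeholder. The genes, lists and rules were chosen with earlier results of these data known. Promoters and gene order came from RefSeq (GRCr8). Figures were drawn with matplotlib 3.10.9. Alternatives covered the low-value filter, probe set choice, fold limit, variance model, arrays in the fit, scaling, a replicate block and leaving out each array.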

Additional observations from a re-analysis of the deposited data

Results flagged for a closer look

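In the 5 markers the difference between PCK and SD was set against that between FHH.Pkhd1 and FHH. Subtracting the congenic difference from the PCK difference gave 4.08 for Havcr1, 1.33 for Clu, -2.65 for Ephx2 and -2.74 for Enpp6 on the log2 scale. For Serpina3n it was 4.96, but 3 of the 4 pool means behind it were below the detection level, so its size is not a measured difference. The markers were chosen because PCK lies outside the other pools, so a wide gap was set by that choice. These sizes are a description, and no test is given.

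Probe sets without a gene symbol carried PCK differences as well. Of 4354 such probe sets at or above the detection level, 48 were higher in PCK than in each other pool (1.1%) and 45 lower (1.03%). The lowest, 1378307_at, averaged 5.44 in PCK, 9.50 in SD, 9.25 in FHH and 9.005 in FHH.Pkhd1. Among the highest, 1379497_at averaged 12.18 in PCK, 9.71 in SD, 7.78 in FHH and 7.84 in FHH.Pkhd1. They are unnamed in the annotation used here.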

How the results depend on the processing

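The fold limit set the counts. With a limit of 2-fold the genes apart in PCK were 26 higher and 13 lower, against 642 and 1135 with none. For PCK minus SD the same limits gave 111 and 3934 genes, for PCK minus FHH 142 and 4790, and for PCK minus FHH.Pkhd1 201 and 5877. They gave 33 and 1298 genes apart in the SD pool, 1 and 342 genes apart in the FHH pool, and 20 and 1406 genes apart in the FHH.Pkhd1 pool. Leaving out 1 array at a time gave 65 to 75 genes higher and 58 to 77 lower in PCK, of which 60 and 52 were apart each time. The ranges were 339 to 359 for PCK minus SD, 409 to 432 for PCK minus FHH, 616 to 649 for PCK minus FHH.Pkhd1, and 99 to 106, 7 to 8 and 79 to 91 for genes apart in SD, FHH and FHH.Pkhd1. Quantile normalization gave 76 higher and 60 lower in PCK, centring 72 and 60, no low-value filter 74 and 65, the 60th percentile 53 and 52, and the mean of probe sets 66 and 55. No direction among the named genes reversed.

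The replicate number as a block gave 66 higher and 63 lower, the same genes. Whether the numbers pair arrays is not settled. Of 18 same-numbered pairs of deviations, 6 correlated above 0.1 (-0.33 to 0.34), and 5 of 12 arrays were closest to their own number. All 6 were between pools other than PCK, while the pairs with PCK ran from -0.33 to 0.06. Each strain is 1 pool, so strain, pool, collection and sex cannot be told apart. Probe sequences were not set against strain variants.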
